A study of Homo sapiens with 24 samples.

Results

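The direct target genes of the transcription factor p53 were followed in a p53-null subline of HCT116 and in HCT116 itself, a cell line from a human colorectal carcinoma. They are 31 genes listed by name, and a gene counted as found where probe sets of the array carried its symbol, or its older symbol, and no other. By this rule 30 genes were found, of 22085 in the probe-set table. All 60 rows that name TRIM22 also name OR56B1, so TRIM22 is not described. TIGAR is listed as C12orf5 and SUSD6 as KIAA0247.

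The groups were p53-null cells given 30 µM isoginkgetin, DMSO or nothing, and HCT116 cells given the same, each for 8 h. Isoginkgetin is a plant biflavonoid known as an inhibitor of pre-mRNA splicing, and DMSO is its vehicle. Each of the 6 groups held 2 arrays from independent experiments, and total RNA was hybridised to the Human Transcriptome Array 2.0, whose probe sets read exons and exon junctions. A set means the 3 arrays that share a line and a number, which gives 4 sets. Whether the subline is 1 clone is not given in the sources used here. A level is the mean log2 value of the exon probe sets of a gene, and 1 log2 is a doubling. Arrays have no read depth, and their number limits the precision of every value.

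p53 is a transcription factor that is held at a low level by the ubiquitin ligase MDM2 and accumulates after DNA damage and other stress. It binds pairs of half-sites in DNA and activates genes that stop the cell cycle, repair DNA, alter metabolism or start apoptosis. Several of its targets, MDM2 and the phosphatase PPM1D among them, act back on p53.

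Matches to the p53 consensus near gene starts are shown because the term direct target refers to binding of p53 to DNA. Promoter windows of RefSeq (GRCh38.p14), 250 bases before to 50 after the start of each gene, were searched for the p53 half-site consensus, taken in pairs with a spacer of 0 or 1 base. The C and the G of each half-site core were required, and up to 3 mismatches were allowed elsewhere. The pattern reads the same on both strands. Of 25 targets with a window, 7 held such a pair (28%), against 795 of 27305 genes (2.91%). With at most 2 mismatches the counts were 4 targets (16%) and 184 genes (0.674%). The 7 sites are printed 5′ to 3′ along the gene's strand, with the C and G of the core in capitals.
DDB2 (chr11:47214979-47214999, plus strand, spacer of 1): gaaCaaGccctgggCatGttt
MDM2 (chr12:68808923-68808942, plus strand): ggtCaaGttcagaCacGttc
FAS (chr10:88991309-88991328, plus strand): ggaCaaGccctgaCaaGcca
AEN (chr15:88621306-88621325, plus strand): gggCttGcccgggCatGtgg
SESN1 (chr6:109009018-109009037, minus strand): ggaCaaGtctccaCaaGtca
FDXR (chr17:74872996-74873015, minus strand): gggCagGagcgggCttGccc
GDF15 (chr19:18386186-18386205, plus strand): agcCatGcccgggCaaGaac
The site of DDB2 had 0 mismatches, those of MDM2, FAS and AEN had 2, and those of SESN1, FDXR and GDF15 had 3. A match describes these letters only and is not evidence of binding. No window was given for FBXO22, TNFRSF10B, PHLDA3, TP53INP1 and RRM2B. The other 18 targets with a window held no such pair in it, and DNA outside the windows was not searched.

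The arrays labelled HCT116 replicate 1 stood apart from the other 3 sets before any comparison. Their correlation with another set over 18640 genes was 0.881 to 0.885 (Pearson r), while the remaining 3 sets reached 0.990 to 0.996 with each other, and genes are not independent replicates. Of 8 epithelial markers, 8 lay lower in them than in every other set, and of 8 fibroblast or mesenchymal markers 8 lay higher. EPCAM, an epithelial adhesion molecule, lay at 12.19 and 12.15 log2 in the p53-null sets, 4.62 on these arrays and 11.97 in HCT116 replicate 2. The median exon probe set was 5.03 to 5.08 log2 on these arrays and 4.14 to 4.22 on the others. Results are therefore given with and without these arrays, and their part in a result is stated as values.

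Without drug, most p53 targets lay lower in p53-null cells than in HCT116 cells. On every p53-null array, DMSO or untreated, 21 of 29 targets lay below every HCT116 array, while 19.9% of all 18640 genes did so. PLK2 was the only target with all p53-null arrays above all HCT116 arrays, which 3.25% of all genes showed. The median difference of the 29 targets, p53-null minus HCT116, was -1.05 log2, against -0.27 log2 over all genes. After quantile scaling the 2 medians were -0.56 and 0.01 log2, and after centring of the arrays -0.61 and 0.17 log2. The count of 21 then became 18 (12.1% of all genes) and 13 (8.3%). CDKN1A, PHLDA3, RRM2B and FDXR dropped out under both, and MDM2, BBC3, FAS and CYFIP2 after centring only. GDF15 has 2 exon probe sets and stays outside the fit, which takes genes with at least 3. In total RNA of a culture, fewer cells that express a gene and less of its RNA per cell cannot be told apart.

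With the 4 sets as replicates, limma called 0 of 29 targets and 1 of 18640 genes (0.00536%) at an adjusted p under 0.05. At an unadjusted p under 0.05 there were 12 targets and 475 genes. Without the arrays labelled HCT116 replicate 1, limma called 12 of 29 targets, 11 lower and PLK2 higher, against 2.58% of all genes (1.91% lower and 0.665% higher). That fit sets 2 sets against 1 and assumes that the lone HCT116 set varies like the p53-null sets. It gave all genes 1 common spread of 0.236 log2, so a target passed by the size of its difference alone and its adjusted p is only as good as that assumption. The number of targets called ranged between 0 and 10 when the scaling, summary, filter or trend was changed in that fit. Only TP53INP1 and PLK2 passed under all of these but 1, the median of the exon probe sets, with which 0 targets passed.

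**Figure D1:**
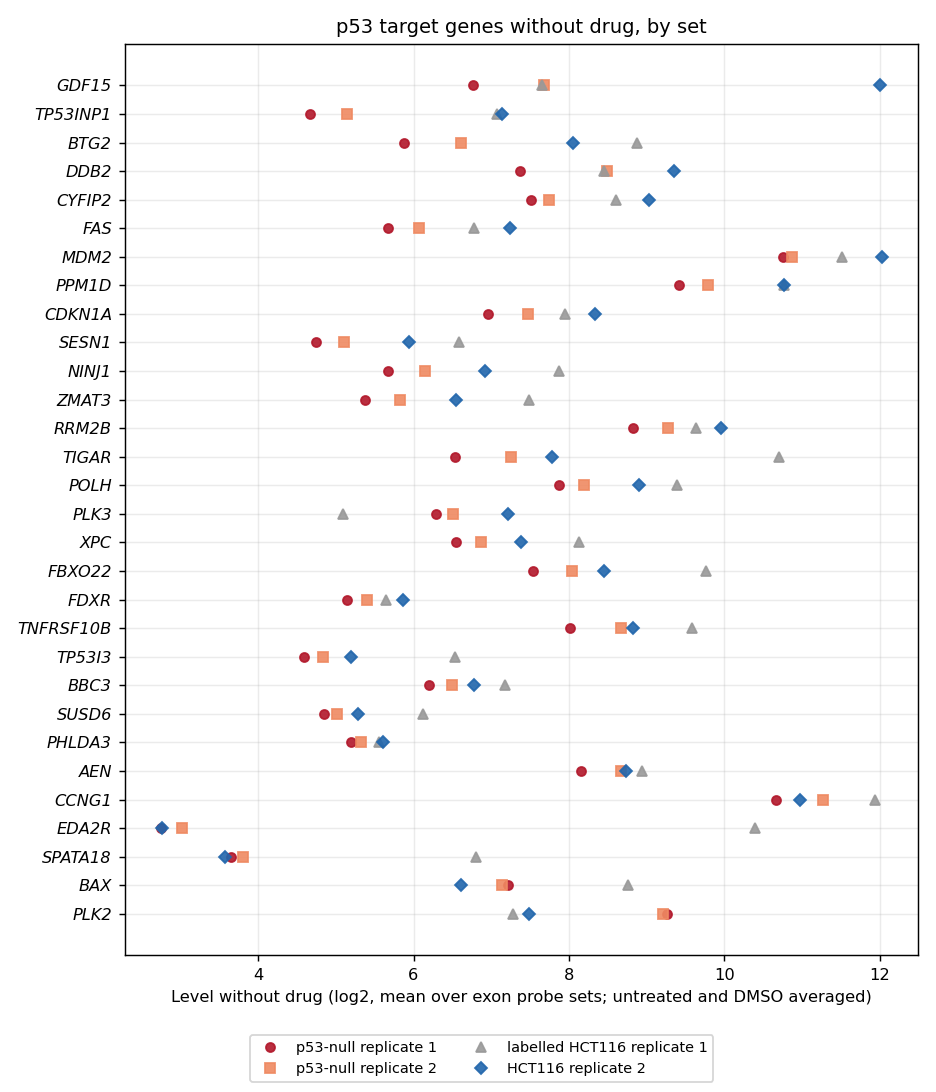
Level of each p53 target without drug (log2, mean over exon probe sets, DMSO and untreated arrays averaged) in the 2 p53-null sets, the arrays labelled HCT116 replicate 1 and HCT116 replicate 2, 1 point per set. Most p53-null points lie left of both HCT116 points, PLK2 lies right of them, and EDA2R, SPATA18 and TIGAR lie far right in the arrays labelled HCT116 replicate 1 alone.

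Of the targets that act back on p53, MDM2 and PPM1D were called lower in p53-null cells without the arrays labelled HCT116 replicate 1, and CCNG1, which encodes cyclin G1, was not called. The differences and adjusted p values given for single targets without drug all come from that fit, unless all sets are named, and none passed with all sets. CDKN1A, ZMAT3, NINJ1 and SESN1 were no longer called in it when genes with at least 1 exon probe set were admitted. MDM2 lay at 10.74 (DMSO) and 10.77 (untreated) in p53-null replicate 1 and at 10.88 and 10.86 in replicate 2, against 11.53 and 11.49 on the arrays labelled HCT116 replicate 1 and 11.96 and 12.11 in HCT116 replicate 2. The 2 lines did not overlap. Without the arrays labelled HCT116 replicate 1 the difference was -1.22 log2 (2.33-fold lower, SE 0.29, limma adjusted p of 0.002). PPM1D lay at 9.40 (DMSO) and 9.43 (untreated) in p53-null replicate 1 and at 9.80 and 9.77 in replicate 2, against 10.71 and 10.82 on the arrays labelled HCT116 replicate 1 and 10.81 and 10.74 in HCT116 replicate 2. PPM1D, which encodes the phosphatase WIP1, did not overlap between the lines either, and its 2 HCT116 sets were nearly equal. Its difference was -1.17 log2 (2.26-fold lower, SE 0.29, limma adjusted p of 0.00358). CCNG1 had a mean level of 10.97 ± 0.43 in p53-null cells and 11.45 ± 0.68 in cells labelled HCT116 (log2, mean ± SD, n = 2 sets each, as for the other means given in this form), and p53-null replicate 2 lay above HCT116 replicate 2.

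Of the targets that act on the cell cycle and growth, CDKN1A, BTG2 and ZMAT3 were called lower in p53-null cells in that fit and PLK2 higher. CDKN1A encodes p21, an inhibitor of cyclin-dependent kinases. CDKN1A lay at 6.97 (DMSO) and 6.95 (untreated) in p53-null replicate 1 and at 7.53 and 7.41 in replicate 2, against 7.91 and 7.98 on the arrays labelled HCT116 replicate 1 and 8.34 and 8.33 in HCT116 replicate 2. By exon means as deposited, all p53-null arrays of CDKN1A lay below all HCT116 arrays. The difference without the arrays labelled HCT116 replicate 1 was -1.12 log2 (2.17-fold lower). After quantile scaling, p53-null replicate 2 (7.57) lay above the arrays labelled HCT116 replicate 1 (7.43), and the lines overlapped after centring too. By junction means p53-null replicate 2 read 4.97 and the arrays labelled HCT116 replicate 1 read 4.94, both untreated. BTG2 lay at 5.78 (DMSO) and 5.98 (untreated) in p53-null replicate 1 and at 6.55 and 6.67 in replicate 2, against 8.85 and 8.91 on the arrays labelled HCT116 replicate 1 and 8.05 and 8.07 in HCT116 replicate 2. For BTG2, an antiproliferative protein that promotes mRNA deadenylation, the difference was -1.81 log2 (3.52-fold lower, SE 0.29, limma adjusted p of 9.25e-08). ZMAT3 lay at 5.33 (DMSO) and 5.42 (untreated) in p53-null replicate 1 and at 5.81 and 5.84 in replicate 2, against 7.48 and 7.49 on the arrays labelled HCT116 replicate 1 and 6.53 and 6.57 in HCT116 replicate 2. The difference of ZMAT3, an RNA-binding protein, was -0.95 log2 (1.93-fold lower, SE 0.29, limma adjusted p of 0.0414).

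PLK2, a polo-like kinase, ran the other way. PLK2 lay at 9.21 (DMSO) and 9.30 (untreated) in p53-null replicate 1 and at 9.12 and 9.31 in replicate 2, against 7.27 and 7.29 on the arrays labelled HCT116 replicate 1 and 7.42 and 7.55 in HCT116 replicate 2. The lines did not overlap, and the difference was 1.75 log2 (3.37-fold higher, SE 0.29, limma adjusted p of 3.05e-07). It had 36 exon probe sets with a mean of 5 log2 or more over all 12 arrays. Of these, 33 lay higher on all p53-null arrays than on all HCT116 arrays, which 5.83% of all such probe sets showed. All 15 of its junction probe sets at that level did so too. PLK3, a related kinase, averaged 6.40 ± 0.16 in p53-null cells and 6.15 ± 1.50 in cells labelled HCT116. The arrays labelled HCT116 replicate 1 lay lowest and HCT116 replicate 2 highest. FBXO22, a subunit of a ubiquitin ligase, averaged 7.79 ± 0.36 in p53-null cells and 9.10 ± 0.93 in cells labelled HCT116. Its difference was -1.32 log2 with all sets and -0.66 log2 without the arrays labelled HCT116 replicate 1.

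GDF15, a secreted stress cytokine, separated HCT116 replicate 2 from every other set. GDF15 lay at 6.48 (DMSO) and 7.05 (untreated) in p53-null replicate 1 and at 7.54 and 7.82 in replicate 2, against 7.63 and 7.68 on the arrays labelled HCT116 replicate 1 and 11.89 and 12.10 in HCT116 replicate 2. The arrays labelled HCT116 replicate 1 lay near p53-null replicate 2, and HCT116 replicate 2 was 27.3-fold above the mean of the p53-null sets. The gene-level table placed it at 6.19 and 8.32 in p53-null DMSO arrays, against 7.24 and 11.93 in HCT116 DMSO arrays. In a fit that admits genes with at least 1 exon probe set and leaves out the arrays labelled HCT116 replicate 1, limma called GDF15 lower in p53-null cells by 4.77 log2, on the same assumption about the lone set. It was not called with all arrays.

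**Figure D2:**
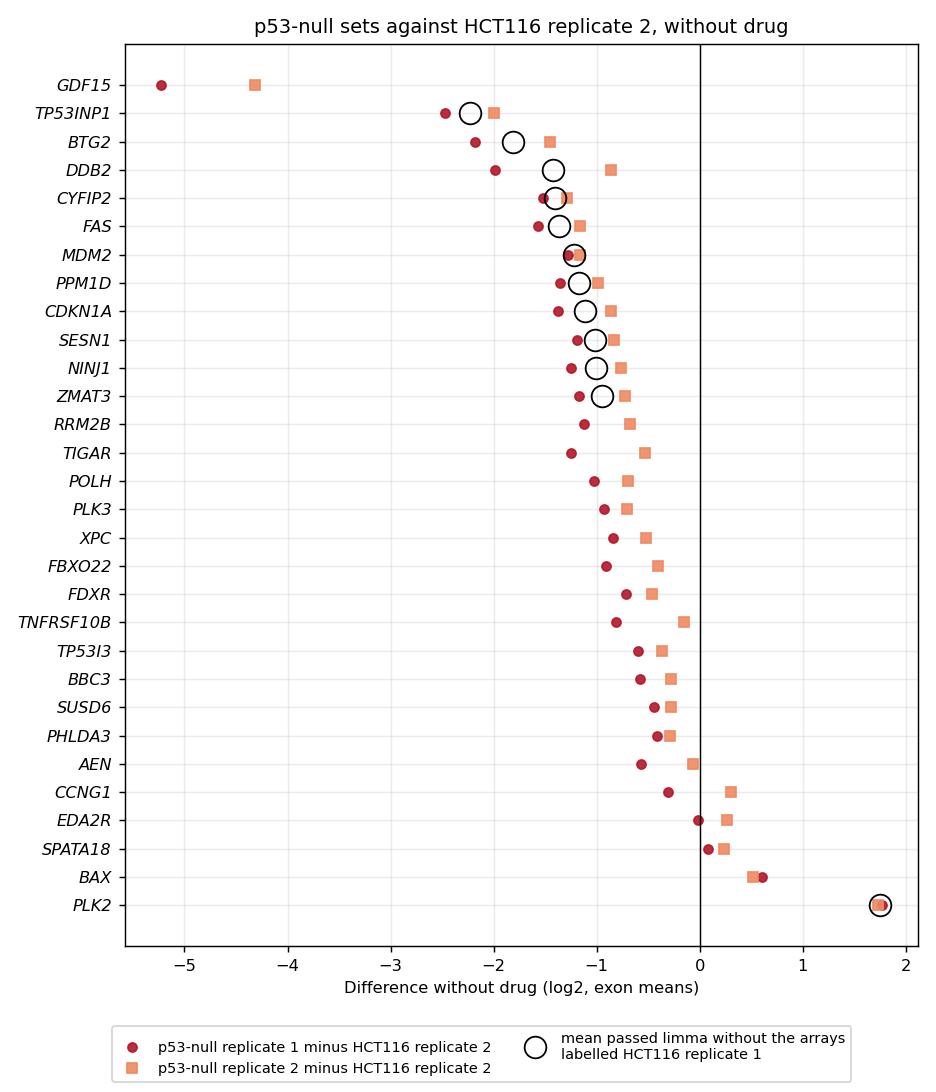
Difference without drug (log2, exon means) of each p53-null set from HCT116 replicate 2, with circles on the means of the 12 targets that passed limma without the arrays labelled HCT116 replicate 1. GDF15 was 27.3-fold lower, TP53INP1 and BTG2 follow, and SPATA18, BAX and PLK2 lie right of 0 in both sets.

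Of 11 targets of apoptosis and death receptor signalling, 8 lay lower on all p53-null arrays than on all HCT116 arrays (19.9% of all genes). TP53INP1, which promotes apoptosis and autophagy, showed the largest difference among them without the arrays labelled HCT116 replicate 1. TP53INP1 lay at 4.72 (DMSO) and 4.62 (untreated) in p53-null replicate 1 and at 5.17 and 5.13 in replicate 2, against 7.13 and 7.03 on the arrays labelled HCT116 replicate 1 and 7.16 and 7.13 in HCT116 replicate 2. The 2 HCT116 sets were nearly equal, and the difference was -2.23 log2 (4.70-fold lower, SE 0.29, limma adjusted p of 5.14e-12). All 7 of its exon probe sets at 5 log2 or more lay lower in p53-null cells. FAS is a death receptor of the cell surface. FAS lay at 5.66 (DMSO) and 5.68 (untreated) in p53-null replicate 1 and at 6.06 and 6.09 in replicate 2, against 6.67 and 6.87 on the arrays labelled HCT116 replicate 1 and 7.19 and 7.29 in HCT116 replicate 2. Its difference was -1.36 log2 (2.58-fold lower, SE 0.29, limma adjusted p of 0.000255), and the lines did not overlap.

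CYFIP2 is a member of a complex that regulates actin. CYFIP2 lay at 7.48 (DMSO) and 7.54 (untreated) in p53-null replicate 1 and at 7.78 and 7.71 in replicate 2, against 8.58 and 8.63 on the arrays labelled HCT116 replicate 1 and 9.04 and 9.02 in HCT116 replicate 2. It differed by -1.40 log2 (2.64-fold lower, SE 0.29, limma adjusted p of 0.000147), and 38 of its 46 exon probe sets at 5 log2 or more lay lower on all p53-null arrays than on all HCT116 arrays. NINJ1 lay at 5.62 (DMSO) and 5.71 (untreated) in p53-null replicate 1 and at 6.14 and 6.16 in replicate 2, against 7.89 and 7.84 on the arrays labelled HCT116 replicate 1 and 6.92 and 6.91 in HCT116 replicate 2. NINJ1, which takes part in the rupture of the plasma membrane of dying cells, differed by -1.01 log2 (2.01-fold lower, SE 0.29, limma adjusted p of 0.0235). By junction means the p53-null mean of NINJ1 differed from HCT116 replicate 2 by -0.35 log2, and their arrays overlapped. BBC3, which encodes PUMA, averaged 6.35 ± 0.21 in p53-null cells and 6.98 ± 0.29 in cells labelled HCT116, with no overlap and no call. Without the arrays labelled HCT116 replicate 1 its difference was -0.43 log2.

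BAX, which opens the outer mitochondrial membrane, did not follow the lines. BAX lay at 7.23 (DMSO) and 7.21 (untreated) in p53-null replicate 1 and at 7.09 and 7.18 in replicate 2, against 8.71 and 8.82 on the arrays labelled HCT116 replicate 1 and 6.58 and 6.65 in HCT116 replicate 2. The arrays labelled HCT116 replicate 1 were highest, and HCT116 replicate 2 lay below both p53-null sets. EDA2R, a receptor of the TNF receptor family, lay high on the arrays labelled HCT116 replicate 1 alone. EDA2R lay at 2.82 (DMSO) and 2.67 (untreated) in p53-null replicate 1 and at 2.98 and 3.07 in replicate 2, against 10.34 and 10.44 on the arrays labelled HCT116 replicate 1 and 2.77 and 2.76 in HCT116 replicate 2. Its difference of -3.69 log2 with all sets therefore rests on that set and was 0.12 log2 without it. The receptor TNFRSF10B averaged 8.34 ± 0.47 in p53-null cells and 9.21 ± 0.54 in cells labelled HCT116. In the same order, PHLDA3 averaged 5.26 ± 0.09 and 5.58 ± 0.04, and TP53I3 averaged 4.71 ± 0.17 and 5.86 ± 0.95. The nuclease AEN averaged 8.41 ± 0.36 in p53-null cells and 8.84 ± 0.15 in cells labelled HCT116. Without the arrays labelled HCT116 replicate 1 the differences of TNFRSF10B, PHLDA3, TP53I3 and AEN were -0.48, -0.35, -0.48 and -0.32 log2. With all sets that of TP53I3 was -1.15 log2.

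Of 4 targets of DNA repair and nucleotide supply, XPC, POLH and RRM2B lay lower on all p53-null arrays than on all HCT116 arrays (19.9% of all genes). DDB2, a sensor of ultraviolet damage whose promoter window holds the site without mismatches, passed the test without the arrays labelled HCT116 replicate 1. DDB2 lay at 7.30 (DMSO) and 7.44 (untreated) in p53-null replicate 1 and at 8.48 and 8.50 in replicate 2, against 8.47 and 8.43 on the arrays labelled HCT116 replicate 1 and 9.31 and 9.40 in HCT116 replicate 2. The 2 p53-null sets differed by over 1 log2, and the second lay at the level of the arrays labelled HCT116 replicate 1. The difference was -1.43 log2 (2.69-fold lower, SE 0.29). The SD of DDB2 over the 2 p53-null sets was 0.80 log2, above the common spread of 0.236 log2 from which that fit took the SE. The call of DDB2 therefore rests on a spread smaller than its own. The SD over the p53-null sets was also above that spread for BTG2 (0.51 log2), CDKN1A (0.36), NINJ1 (0.34) and TP53INP1 (0.34). It was above it too for ZMAT3 (0.32), FAS (0.29), PPM1D (0.26) and SESN1 (0.25), so the same limit holds for their calls. Among the called targets only MDM2 (0.08), PLK2 (0.03) and CYFIP2 (0.17) lay below it. XPC, a damage sensor of nucleotide excision repair, averaged 6.70 ± 0.23 in p53-null cells and 7.76 ± 0.52 in cells labelled HCT116. POLH, a translesion polymerase, averaged 8.03 ± 0.23 in p53-null cells and 9.14 ± 0.35 in cells labelled HCT116, and all 18 of its exon probe sets at 5 log2 or more lay lower on the p53-null arrays. RRM2B, a subunit of ribonucleotide reductase, averaged 9.05 ± 0.32 in p53-null cells and 9.79 ± 0.22 in cells labelled HCT116. Without the arrays labelled HCT116 replicate 1 the differences of XPC, POLH and RRM2B were -0.68, -0.86 and -0.90 log2, none called.

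Of 5 targets of metabolism, mitochondria and other roles, 4 lay lower on all p53-null arrays (19.9% of all genes). SESN1, a sestrin that restrains mTORC1, passed that test as well. SESN1 lay at 4.71 (DMSO) and 4.78 (untreated) in p53-null replicate 1 and at 5.04 and 5.16 in replicate 2, against 6.58 and 6.59 on the arrays labelled HCT116 replicate 1 and 5.94 and 5.93 in HCT116 replicate 2. Its difference was -1.01 log2 (2.02-fold lower, SE 0.29, limma adjusted p of 0.0225). TIGAR lay at 6.50 (DMSO) and 6.57 (untreated) in p53-null replicate 1 and at 7.27 and 7.24 in replicate 2, against 10.68 and 10.72 on the arrays labelled HCT116 replicate 1 and 7.76 and 7.80 in HCT116 replicate 2. For TIGAR, a regulator of glycolysis, the difference of -2.35 log2 with all sets became -0.89 log2 (adjusted p of 0.0716) without the arrays labelled HCT116 replicate 1. FDXR, a mitochondrial reductase, averaged 5.27 ± 0.18 in p53-null cells and 5.76 ± 0.15 in cells labelled HCT116, SUSD6 averaged 4.93 ± 0.12 in p53-null cells and 5.71 ± 0.59 in cells labelled HCT116, and SPATA18, which takes part in mitochondrial quality control, averaged 3.73 ± 0.11 in p53-null cells and 5.19 ± 2.29 in cells labelled HCT116. The high HCT116 mean of SPATA18 came from the arrays labelled replicate 1. Without those arrays the differences of FDXR and SUSD6 were -0.59 and -0.36 log2, neither called.

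The direction was shared by most probe sets of these genes. Of 427 exon probe sets of the 30 targets with a mean of 5 log2 or more, 306 lay lower on all p53-null arrays than on both HCT116 replicate 2 arrays without drug, against 38.8% of all such probe sets. There were 54 that lay higher, against 16.3%, and 34 of them belonged to PLK2 and 12 to BAX. Genes with more probe sets weigh more in these counts, and probe sets of 1 gene are not independent. The mean was taken over all 12 arrays, so a probe set could pass 5 log2 through the cells where it was high. EDA2R, high on the arrays labelled HCT116 replicate 1 alone, entered with 6 exon probe sets. The counts of probe sets given for single targets have the same limit, and all of them are descriptions and not tests. Against all HCT116 arrays 247 lay lower (27.4% of all). Over exon means, 23 of 29 targets lay below HCT116 replicate 2 (26.5% of all genes) and 3 above it, PLK2, BAX and SPATA18 (31.6%). The junction probe sets, read apart, gave 14 of 29 targets lower than all HCT116 arrays, against 14.7% of all genes. BTG2 is one where the readings part, with 2 of its 3 junction probe sets higher in p53-null cells.

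**Figure D3:**
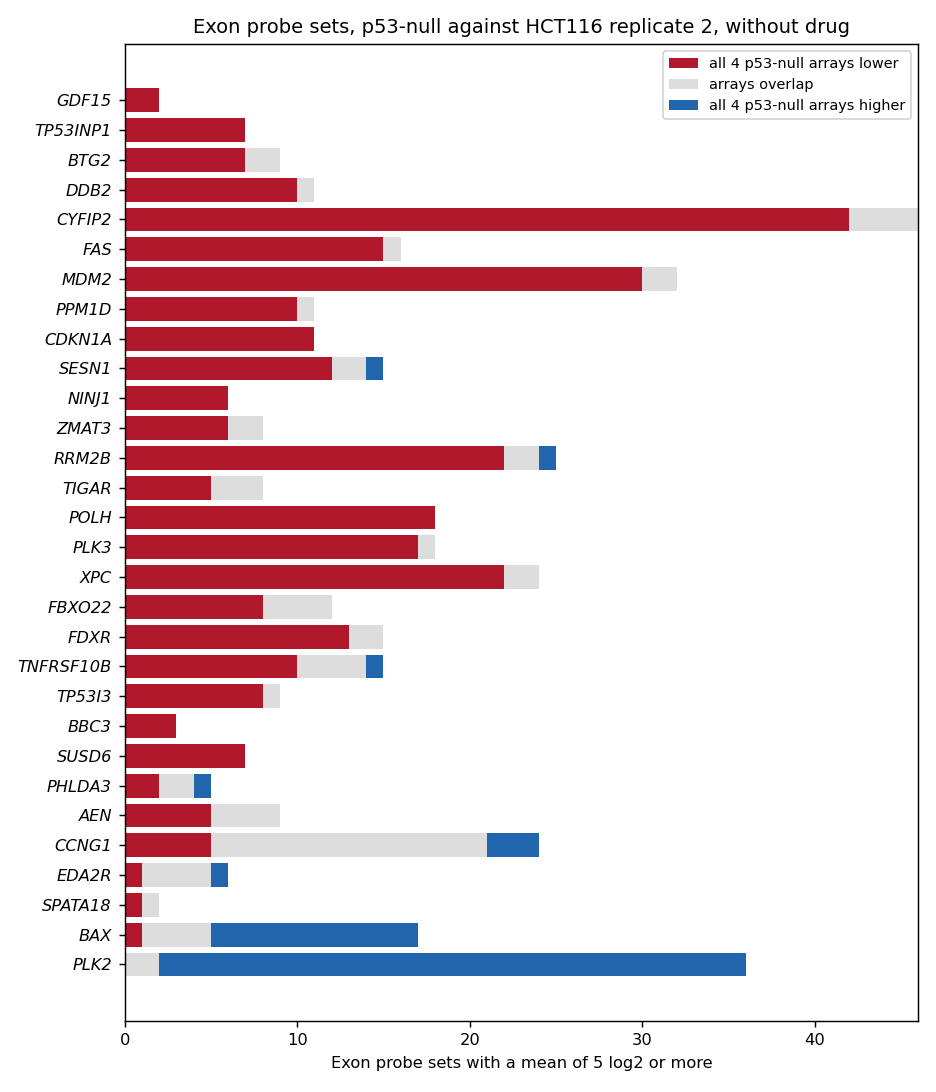
Number of exon probe sets with a mean of 5 log2 or more for each target, split by whether the 4 p53-null arrays without drug lay all lower than, overlapping with or all higher than the 2 arrays of HCT116 replicate 2. In CDKN1A, TP53INP1, NINJ1 and POLH all bars are lower, and in PLK2 34 of 36 are higher.

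Other genes of the p53 pathway were read beside these. Of 42 further p53 targets, 15 lay lower and 3 higher on all p53-null arrays than on all HCT116 arrays, against 19.9% and 3.25% of all genes. Limma without the arrays labelled HCT116 replicate 1 called 4 of them, all lower, against 1.91% of all genes. These were ABCA12, a lipid transporter (-1.47 log2, limma adjusted p of 5.1e-05), TLR3, a receptor of double-stranded RNA (-1.40 log2, 0.000141), DRAM1, a lysosomal protein (-1.25 log2, 0.00125), and CES2, a carboxylesterase (-0.94 log2, 0.0434). Of 19 cell cycle genes that p53 represses through p21, 3 lay lower and 2 higher, and 0 were called in that fit. Of 23 regulators of p53, 7 lay lower and 1 higher, and 0 were called. The same shares of all genes, 19.9% lower and 3.25% higher, stand beside these counts.

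Few p53 targets were called with isoginkgetin at 8 h. Without a block limma called 0 of 29 targets in p53-null cells and 0 in HCT116 cells, with 13 and 17 genes of 18640 at an unadjusted p under 0.05. That is far fewer than a p under 0.05 gives without any effect, because the spread in this fit includes the differences between sets. Its 0 calls therefore do not show that the targets did not respond. Arrays of 1 line and 1 number deviate together, so the drug was also tested within sets, with the set as a block. Then 0 of 29 targets were called in p53-null cells (0.397% of all genes), and 2 in cells labelled HCT116, AEN and XPC, both lower (3.71% of all genes, with 3.04% lower and 0.671% higher). Without the arrays labelled HCT116 replicate 1, the block called PLK2 and TP53INP1 lower in p53-null cells (2.38% of all genes, with 1.15% lower and 1.23% higher) and AEN and PLK2 lower in HCT116 cells (13.8%, with 9% lower and 4.85% higher). When genes with at least 1 exon probe set were admitted, the block called 0 targets in either line with all arrays. With the arrays labelled HCT116 replicate 1 left out it then called 0 in p53-null cells and AEN alone in HCT116 cells. Of the 29 targets, 8 were lower than DMSO in all 4 sets, against 12.5% of all genes, and 0 were higher in all 4, against 14.2%. After quantile scaling 7 were lower (12.2%) and 1 higher (12%), and after centring 9 (17.9%) and 0 (7.59%). With the median of the exon probe sets 3 were lower (7.99%) and 2 higher (6.3%), and with junction means 6 (10.7%) and 2 (12%). The count of 8 thus depends on the summary. The median response was -0.02 log2 in p53-null cells and -0.04 log2 in HCT116 cells, against 0.01 log2 over all genes in each. DMSO against untreated gave 0 called targets in either line.

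**Figure D4:**
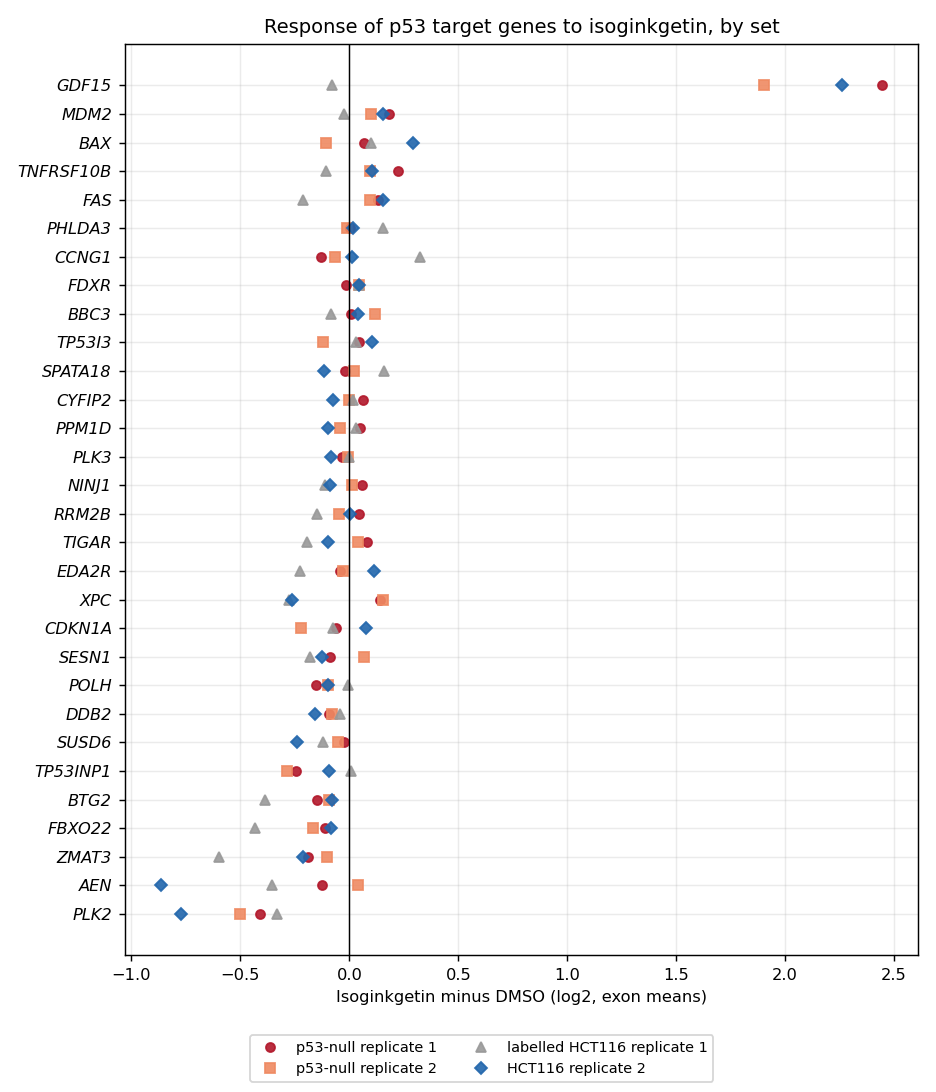
Isoginkgetin minus DMSO (log2, exon means) for each p53 target, 1 point for each of the 4 sets. GDF15 lies near 2 log2 in 3 sets and near 0 in the arrays labelled HCT116 replicate 1, PLK2 lies below 0 in all 4 sets, and AEN is lowest in HCT116 replicate 2.

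PLK2 was lower with the drug in every set. PLK2 had a response of -0.41 and -0.50 log2 in p53-null replicates 1 and 2, -0.33 log2 on the arrays labelled HCT116 replicate 1 and -0.77 log2 in HCT116 replicate 2. In p53-null cells the block gave -0.46 log2 (SE 0.12, limma adjusted p of 0.182), and without the arrays labelled HCT116 replicate 1 -0.46 log2 (adjusted p of 0.0193). In cells labelled HCT116 the block gave -0.55 log2 (SE 0.12, limma adjusted p of 0.0541), and without the arrays labelled HCT116 replicate 1 -0.77 log2 (adjusted p of 0.00322). Without those arrays and with genes of at least 1 exon probe set, the adjusted p was 0.193 in p53-null cells and 0.0538 in HCT116 cells, so neither was called. Of its 36 exon probe sets at 5 log2 or more, 26 were lower with the drug in all 4 sets, against 7.81% of all such probe sets, and 0 were higher in all 4, against 3.95%. The difference between the lines had an adjusted p of 0.102 in the block without the arrays labelled HCT116 replicate 1.

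AEN, which encodes a nuclease of apoptosis, was lower with the drug in both sets labelled HCT116. The response of AEN was -0.12 and 0.04 log2 in p53-null replicates 1 and 2, -0.35 log2 on the arrays labelled HCT116 replicate 1 and -0.87 log2 in HCT116 replicate 2. In p53-null cells the block gave -0.04 log2 (SE 0.12, limma adjusted p of 0.961), and without the arrays labelled HCT116 replicate 1 -0.04 log2 (adjusted p of 0.758). In cells labelled HCT116 the block gave -0.61 log2 (SE 0.12, limma adjusted p of 0.0422), and without the arrays labelled HCT116 replicate 1 -0.87 log2 (adjusted p of 0.00257). With genes of at least 1 exon probe set the response in cells labelled HCT116 had an adjusted p of 0.0924 with all arrays and of 0.0485 without those arrays. The 2 p53-null sets lay on either side of 0. By junction means AEN differed from DMSO by -0.202 and 0.279 log2 in p53-null replicates 1 and 2. The junction values were -0.091 log2 on the arrays labelled HCT116 replicate 1 and -0.213 log2 in HCT116 replicate 2, so they overlapped between the lines. The values that follow are from exon means. Without the arrays labelled HCT116 replicate 1 the response of p53-null minus that of HCT116 cells was 0.82 log2 (SE 0.09, limma adjusted p of 0.012, against 5.94% of all genes called, with 3.94% positive), and with all arrays and the block it was 0.57 log2 (adjusted p of 0.25). The difference of 0.82 log2 had an adjusted p of 0.0898 with genes of at least 1 exon probe set.

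By exon means XPC lay above DMSO in both p53-null sets and below it in both sets labelled HCT116. With isoginkgetin, XPC differed from DMSO by 0.14 and 0.16 log2 in p53-null replicates 1 and 2, -0.28 log2 on the arrays labelled HCT116 replicate 1 and -0.26 log2 in HCT116 replicate 2. Such opposite signs were seen in 4 of the 30 targets, XPC, CCNG1, TIGAR and NINJ1, against 12.8% of all genes, so the count lay near that share. By junction means XPC differed from DMSO by -0.164 and 0.085 log2 in p53-null replicates 1 and 2. The junction values were -0.299 log2 on the arrays labelled HCT116 replicate 1 and -0.092 log2 in HCT116 replicate 2, so their signs did not part the lines. With the block the response of XPC in cells labelled HCT116 was -0.27 log2 (SE 0.05, limma adjusted p of 0.0431, or 0.0718 with genes of at least 1 exon probe set), and without the arrays labelled HCT116 replicate 1 it was -0.26 log2 (adjusted p of 0.082). TP53INP1 was lower in both p53-null sets by exon means, while by junction means it differed from DMSO by 0.078 and -0.234 log2 in them. TP53INP1 had a response of -0.25 and -0.29 log2 in p53-null replicates 1 and 2, 0.01 log2 on the arrays labelled HCT116 replicate 1 and -0.09 log2 in HCT116 replicate 2. Its response in p53-null cells, -0.27 log2, had an adjusted p of 0.1 with the block and of 0.0391 without the arrays labelled HCT116 replicate 1, which became 0.197 with genes of at least 1 exon probe set.

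GDF15 had the largest response among the 30 targets and was not called in either fit with the block that admits it. The response of GDF15 was 2.45 and 1.90 log2 in p53-null replicates 1 and 2, -0.08 log2 on the arrays labelled HCT116 replicate 1 and 2.26 log2 in HCT116 replicate 2. The 2 p53-null sets and HCT116 replicate 2 were higher than DMSO, and the arrays labelled HCT116 replicate 1 were not. In the block with genes of at least 1 exon probe set, the mean response was 2.18 log2 in p53-null cells (SE 0.61, limma adjusted p of 0.293) and 1.09 log2 in cells labelled HCT116 (SE 0.61, adjusted p of 0.334). With the arrays labelled HCT116 replicate 1 left out it was 2.18 log2 in p53-null cells (SE 0.17, adjusted p of 0.173) and 2.26 log2 in HCT116 cells (SE 0.24, adjusted p of 0.0542). The single junction probe set read 7.51 and 10.47 with isoginkgetin against 4.76 and 7.31 with DMSO in p53-null cells. In HCT116 replicate 2 it read 14.69 against 12.53, and on the arrays labelled HCT116 replicate 1 it read 6.37 against 6.85.

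The classical targets CDKN1A and MDM2 were not called in any of these fits. With isoginkgetin, CDKN1A differed from DMSO by -0.06 and -0.22 log2 in p53-null replicates 1 and 2, -0.08 log2 on the arrays labelled HCT116 replicate 1 and 0.08 log2 in HCT116 replicate 2. The sets lay on either side of 0. MDM2 had a response of 0.18 and 0.10 log2 in p53-null replicates 1 and 2, -0.02 log2 on the arrays labelled HCT116 replicate 1 and 0.15 log2 in HCT116 replicate 2. In the block the adjusted p of MDM2 was 0.355 in p53-null cells and 0.461 in cells labelled HCT116, and that of CDKN1A was 0.451 and 0.995.

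Other targets below DMSO in all 4 sets by exon means were BTG2, PLK3, ZMAT3, FBXO22, DDB2, POLH and SUSD6, each without a call in p53-null or HCT116 cells with the block. Some of these values were close to 0, as PLK3 at -0.005 log2 in p53-null replicate 2. POLH lay at -0.007 log2 on the arrays labelled HCT116 replicate 1. With the median of the exon probe sets only POLH of these 7 was below DMSO in all 4 sets. The response of ZMAT3 was -0.19 and -0.10 log2 in p53-null replicates 1 and 2, -0.60 log2 on the arrays labelled HCT116 replicate 1 and -0.21 log2 in HCT116 replicate 2. With isoginkgetin, FBXO22 differed from DMSO by -0.11 and -0.17 log2 in p53-null replicates 1 and 2, -0.44 log2 on the arrays labelled HCT116 replicate 1 and -0.08 log2 in HCT116 replicate 2. Both showed their lowest value on the arrays labelled HCT116 replicate 1. FAS, TNFRSF10B and MDM2 were above DMSO in 3 sets and below it on those arrays. Junction means gave 0 called targets with and without the block, except PLK2 in HCT116 cells in the block without the arrays labelled HCT116 replicate 1. Of 1035 single probe sets of the targets 0 were called in either line, with 86 in p53-null cells and 152 in cells labelled HCT116 at an unadjusted p under 0.05 in the block. These were 8.31% and 14.7% of the target probe sets, against 7.17% and 11.7% of all probe sets.

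**Figure D5:**
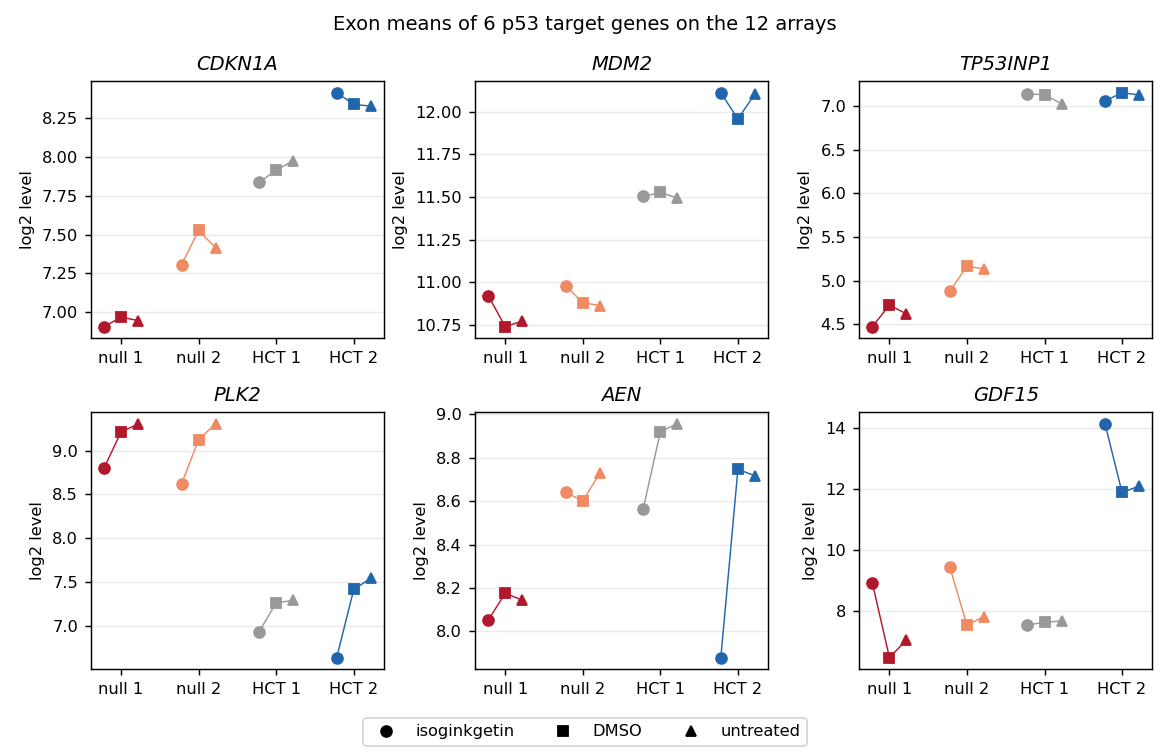
Exon means (log2) of CDKN1A, MDM2, TP53INP1, PLK2, AEN and GDF15 on the 12 arrays, with p53-null sets (null 1, null 2) left of the sets labelled HCT116 (HCT 1, HCT 2), and isoginkgetin, DMSO and untreated arrays as circles, squares and triangles. PLK2 is higher in p53-null cells and lower with the drug, and the isoginkgetin array of HCT116 replicate 2 is the lowest of all for AEN.

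Of 42 further p53 targets, DRAM1 (-0.49 log2, limma adjusted p of 0.0171) and TRAF4, a signalling adaptor (-0.27 log2, 0.0426), fell in cells labelled HCT116 in the block, where 3.04% of all genes fell, and 0 were called in p53-null cells. Without the arrays labelled HCT116 replicate 1, 2 rose and 2 fell in p53-null cells (1.23% and 1.15% of all genes). SESN2, a sestrin, rose by 1.28 log2 (adjusted p of 0.0403), and SFN, the 14-3-3 protein sigma, fell by 0.62 log2 (0.0112). In HCT116 cells 5 rose and 5 fell in that fit, against 4.85% and 9% of all genes, SESN2 at 1.61 log2 (0.0179), GADD45A, a stress sensor, at 0.56 log2 (0.00824), and SFN at -0.49 log2 (0.0125). The integrated stress response also induces some of these genes. Its transcription factors and targets lay above DMSO in both p53-null sets and in HCT116 replicate 2. Their median response over 8 genes was 0.88 log2 in p53-null cells, 1.00 log2 in cells labelled HCT116 and 1.58 log2 in HCT116 without the arrays labelled replicate 1. On those arrays DDIT3 differed from DMSO by 0.80 log2 and the remaining genes of the list by -0.13 to 0.09 log2, as ATF4 did by -0.02 log2. The block called 0 in p53-null cells and 1 in cells labelled HCT116 (0.397% and 3.71% of all genes), and without those arrays 7 and 8 (2.38% and 13.8%). Their part in the response of GDF15 was not tested.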

How the data were processed

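The values are log2 levels as deposited by the authors, who processed the arrays in Transcriptome Analysis Console 4.0 with default settings, per the labels and the design text (the labels do not name the background correction or summary used). The probe-set table holds 573909 exon and 339146 junction probe sets, of which 672085 carry 1 gene symbol in the platform annotation; 2415 symbols were updated. The authors' gene-level table was an alternative, in which many targets had the same value with DMSO and isoginkgetin. No per-sample column was left unused (0). The gene disrupted in the subline is not reported here.

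Exon means were computed for 18640 genes with at least 3 exon probe sets and 1 symbol, and tested with limma 3.58.1 in R 4.3.3 with Benjamini-Hochberg adjustment over all of them, called at an adjusted p under 0.05. The drug was tested on 6 group means, without and with the set as a block. The lines were compared over sets, each the mean of its DMSO and untreated arrays. After removal of group means, arrays of 1 line with 1 number correlated at 0.903 to 0.997 and arrays of different lines with 1 number at 0.0684 to 0.108, so numbers pair arrays within a line only. The design text calls the replicates independent biological experiments.

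The members and the gene lists were chosen with earlier results of these data known. All 30 genes found are named; values per array are given for CDKN1A, MDM2, BAX, FAS and GDF15, for called genes and for the gene of each role with the largest difference between the lines, and of other lists up to 4 called genes are named. Fits that leave out the arrays labelled HCT116 replicate 1 and combine this with another change were added after seeing the data.

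The fits were tested on simulated data. The comparison of 2 sets against 1 found all of the larger changes put in, and missed many of the smaller ones, when genes were given the moderated spread of that fit. This version was written after a first one, in which each gene had its own spread, taken from the p53-null sets, and in which that comparison found no changed gene. Its calls therefore depend on the assumption of a common spread. Figures were drawn with matplotlib 3.10.9.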

Additional observations from a re-analysis of the deposited data

Results flagged for a closer look

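By exon means, the responses of 4 of the 30 targets had opposite signs in the 2 p53-null sets and the 2 sets labelled HCT116. Of all 18640 genes 12.8% did so, so the count lay near that share and is not particular to the targets. The p53-null responses of NINJ1 were 0.06 and 0.01 log2. The response of the p53-null sets minus that of the HCT116 sets was 0.418 log2 for XPC, -0.264 log2 for CCNG1, 0.207 log2 for TIGAR and 0.136 log2 for NINJ1. For XPC the test of this difference gave a limma adjusted p of 0.154 with the set as a block, so it did not pass. By junction means the responses of XPC and AEN overlapped between the lines. For AEN the difference passed in the block without the arrays labelled HCT116 replicate 1, at 0.82 log2 (limma adjusted p of 0.012), in a fit where HCT116 is 1 set, and not with genes of at least 1 exon probe set (0.0898).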

How the results depend on the processing

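Without drug, 0 targets were called with all sets, and leaving out 1 array or set gave 0 to 24. The count was 12 without the arrays labelled HCT116 replicate 1 and 24 without HCT116 replicate 2, where those arrays stand alone for HCT116 and 9447 genes were called. Without the arrays labelled HCT116 replicate 1, quantile scaling gave 4 targets, centring 9, junction means 3, gene-level values 4, exon probe sets of at least 5 log2 10, genes of at least 5 log2 9, an intensity trend 5, genes with at least 1 exon probe set 9 and the median of exon probe sets 0. In that fit 124 genes were higher and 356 lower, and with quantile scaling 92 and 115. With the replicate number as a block across lines, which the data do not pair, 1 target was called, EDA2R, of 271 genes. For the drug in HCT116 cells, 0 targets were called without and 2 with the replicate block, 5 with the block and centring (PLK2, ZMAT3, AEN, XPC and SUSD6), 1 with the block and an intensity trend (AEN), 0 with the block and genes of at least 1 exon probe set (AEN and XPC at adjusted p values of 0.0924 and 0.0718), and 2 with the block without the arrays labelled HCT116 replicate 1. The block without those arrays and with genes of at least 1 exon probe set gave 1 (AEN) in HCT116 cells and 0 in p53-null cells and for the difference of responses. In p53-null cells the replicate block gave 0 targets, and 2 without those arrays. The difference of responses gave 0 with the block and 1 without those arrays, and junction means in HCT116 cells gave 1. Leaving out 1 array or set without a block gave 0 to 0 targets for every drug and vehicle comparison, junctions included, and the count at an unadjusted p under 0.05 was 13 genes in p53-null and 17 in HCT116 cells. Few genes could pass without a block, so these 0 counts do not measure stability. The replicate block changed no call in the vehicle comparisons. The fits with all arrays and no block called 0 targets, so no target could lose a call against them. Of 4088 single-gene values under the alternatives, 102 were called and 446 did not keep the sign of the value with all arrays and no block, 0 of them called. Differences of 0 are among the 446. In the gene-level values many targets were the same with DMSO and isoginkgetin, as MDM2 was in all 4 sets. Gene-level values therefore say little about the drug response of such targets. Without drug, leaving out the arrays labelled HCT116 replicate 1 turned the sign of 5 targets, none called: PLK3 (-0.81 log2, against 0.25 with all sets), BAX (0.56, against -0.51), EDA2R (0.12, against -3.69), SPATA18 (0.16, against -1.46) and CCNG1 (0.0005, against -0.48). The cause of these changes was not tested. The comparison of the lines is limited by 2 sets per line.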
